A study of Erigeron canadensis with 32 samples.

Results

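The response of *Erigeron canadensis* (horseweed) leaves to halauxifen-methyl, an auxin herbicide of the arylpicolinate class, was measured 6 h after treatment (6 HAT) against water at the same time. The comparison rests on 8 of the 32 RNA-seq libraries of the series, which were the 4 halauxifen-methyl and the 4 water libraries named by those labels, and on all 54498 predicted genes of the count table. Every plant was a rosette of 1 glyphosate-resistant biotype raised from seed in a greenhouse, and every spray, water included, carried a surfactant. Each library came from 1 leaf of a separate plant, so that the p-values measure the spread between plants. Libraries of the same treatment and of water taken at 1 HAT from other plants, and the 2,4-D and dicamba libraries of 6 HAT, were used only where named. The 3 herbicides were applied at different doses, each near its field use rate, so a difference between them is one between treatments and not between equal amounts.

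Synthetic auxins imitate indole-3-acetic acid. In *A. thaliana*, auxin joins the TIR1/AFB receptors to the AUX/IAA repressors and sends the repressors to degradation, which frees the auxin response factors (ARFs) to switch on early genes of the AUX/IAA, GH3 and SAUR families. In broadleaf weeds an overdose is known for twisted growth, for changes in ethylene and abscisic acid, and for loss of photosynthesis before the plant dies. Genes are called here by the symbol of their best *A. thaliana* hit with the horseweed identifier behind it, and several horseweed genes share a hit. Reads of near-identical copies may have been split between them.

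Total counts ran from 13861040 to 23388792 in the halauxifen-methyl libraries and from 16336133 to 20630627 in the water libraries. Values are CPM, a gene's count scaled to a common library total with TMM normalization, given in the order of replicates 1 to 4. Water replicate 1 stood apart from all other libraries. It had counts for 12453 genes, against 16519 to 18325 in the other water libraries, and 114 genes that reached 5 CPM or more in all 7 other libraries had 0 counts in it, where the other libraries had 0 to 4 such genes. Its log2 CPM correlated with the other water libraries at r = 0.833 to 0.852, while those correlated with each other at 0.943 to 0.955. Results are therefore also given without it for the comparison as a whole, where a named call was lost and where a list's count moved by a large factor. Smaller moves of list counts are not given. Without it, for example, 21 SAUR genes were higher instead of 17, and 41 receptor-like kinases instead of 33. UDP-glycosyltransferases had 23 higher instead of 24. Where values of all 8 libraries at 6 HAT are given, the groups did not overlap, except for AOS (HW_13814), JAR1 (HW_28187), NCED3 (HW_373), NCED4 (HW_13601), ABA2 (HW_26707) and GA3OX1 (HW_32323).

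Of 14528 genes with enough counts to be tested, 1242 were higher and 891 lower after halauxifen-methyl than after water (edgeR's quasi-likelihood test, Benjamini-Hochberg adjusted p of 0.05 or less). Called genes made up 14.7% of those tested, 8.55% higher and 6.13% lower, and these are the shares beside which the counts of each gene list below should be read. Changes upward were larger, with 315 genes higher by at least 8-fold and 64 lower by that much. The 4 libraries of halauxifen-methyl lay wholly above those of water for 13.9% of the genes tested and wholly below for 9.63%. The median log2 fold change was 1.63 among the genes called higher, -1.24 among those called lower and 0.05 over all genes tested. The 1242 higher genes held 16.7 to 23.3% of the normalized counts after halauxifen-methyl, against 5.57 to 6.55% after water, and the 891 lower genes held 11.8 to 20.4% after halauxifen-methyl, against 32.3 to 36.9% after water. These shares follow from the calls and are given as a description. Without water replicate 1, 1532 genes were higher and 1104 lower of 15045 tested, and these included 94.4% of the 1242 and 91.6% of the 891. Lower genes numbered 512 without halauxifen-methyl replicate 1, 559 without water replicate 2 and 586 without water replicate 3.

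**Figure D1:**
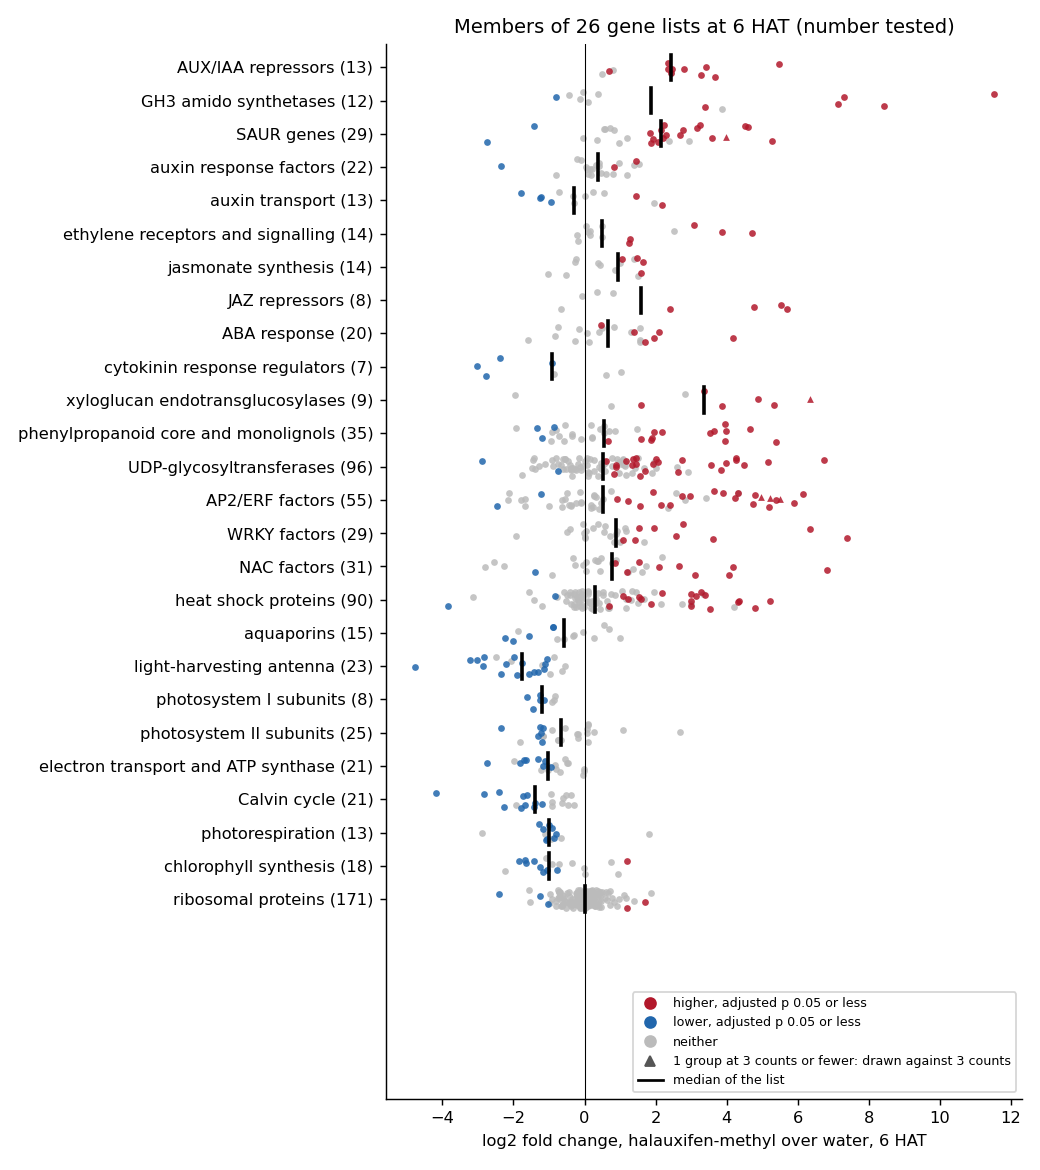
Log2 fold changes (halauxifen-methyl over water, 6 HAT) of the tested members of 26 gene lists, 1 point per gene, with the list's median as a bar and the number tested in brackets. Triangles are genes whose water libraries held 3 counts or fewer, drawn against 3 counts. The AUX/IAA, SAUR, jasmonate, xyloglucan endotransglucosylase and stress regulator lists lie mostly to the right of 0, the photosynthesis lists to the left, and the ribosomal proteins around 0.

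The early auxin response genes were higher by a wide margin. Among the AUX/IAA repressors, 10 of 13 tested members were higher and 0 lower (median log2 fold change 2.45), and the family together reached 5105, 5685, 4899 and 4831 CPM after halauxifen-methyl, against 1107, 888, 958 and 1065 CPM after water. ATAUX2-11 (HW_4976) had 1849, 1821, 1729 and 1872 CPM after halauxifen-methyl, against 196, 164, 171 and 155 CPM after water (log2 fold change 3.41 ± 0.16, adjusted p = 3.76e-06). SHY2 (HW_18168) had 923, 1005, 855 and 806 CPM after halauxifen-methyl, against 151, 162, 173 and 224 CPM after water (log2 fold change 2.34 ± 0.18, adjusted p = 4.44e-05). IAA13 (HW_49852) had 313, 383, 334 and 277 CPM after halauxifen-methyl, against 70.6, 35.8, 37.8 and 44.5 CPM after water (log2 fold change 2.79 ± 0.24, adjusted p = 7.57e-05). All 13 tested members had a positive log2 fold change, and the halauxifen-methyl libraries of each of these 3 genes lay above all water libraries.

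The GH3 enzymes join auxin or jasmonate to amino acids. Their list was split, since 5 of 12 tested members were higher and 1 lower (median log2 fold change 1.88). The higher members were closest to GH3.1, DFL1 and WES1, whose *A. thaliana* proteins act on auxin. GH3.1 (HW_8261), a gene of 3 exons and 1803 coding bases, had 2044, 3018, 2774 and 2641 CPM after halauxifen-methyl, against 1.25, 1.78, 0.3297 and 0.1702 CPM after water (log2 fold change 11.52 ± 0.65, adjusted p = 1.25e-05). DFL1 (HW_43852) had 188, 248, 193 and 203 CPM after halauxifen-methyl, against 0, 0.974, 0 and 1.36 CPM after water (log2 fold change 8.42 ± 0.77, adjusted p = 9.68e-05). WES1 (HW_7406) had 82.3, 105, 91.5 and 51.5 CPM after halauxifen-methyl, against 0.119, 1.15, 0 and 0.738 CPM after water (log2 fold change 7.31 ± 0.68, adjusted p = 0.000105). These 3 genes were under 2 CPM in every water library. JAR1, which in *A. thaliana* joins jasmonate to isoleucine, did not share this. JAR1 (HW_2486) had 30.01, 30.3, 26.3 and 38.98 CPM after halauxifen-methyl, against 56.7, 46.02, 60.9 and 54.5 CPM after water (log2 fold change -0.80 ± 0.17, adjusted p = 0.0121), a call that was lost in the fit of all 32 libraries (adjusted p = 0.142). The more abundant JAR1 (HW_28187) had 440.5, 389, 381 and 256 CPM after halauxifen-methyl, against 314, 297, 378 and 382 CPM after water (log2 fold change 0.10 ± 0.19, adjusted p = 0.821), with overlapping groups.

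In the SAUR family, small proteins that promote cell expansion, 17 of 29 tested members were higher and 2 lower (median log2 fold change 2.15). The 3 higher members with the smallest adjusted p were closest to AT4G38840. HW_748 had 379.6, 271, 322 and 419 CPM after halauxifen-methyl, against 78.3, 67.96, 68.97 and 84.7 CPM after water (log2 fold change 2.21 ± 0.18, adjusted p = 5.42e-05), HW_20494 had 319, 247, 272 and 368 CPM after halauxifen-methyl, against 80.2, 51.2, 55.6 and 68.1 CPM after water (log2 fold change 2.24 ± 0.20, adjusted p = 8.59e-05) and HW_5327 had 189, 125, 93.7 and 266 CPM after halauxifen-methyl, against 13.9, 10.7, 16.4 and 14.6 CPM after water (log2 fold change 3.60 ± 0.33, adjusted p = 9.68e-05). HW_20493 and HW_20494 lie beside each other on a contig, as do HW_20619 and HW_20620, and all 4 were called higher. The lower members were AT2G36210 (HW_16531), with 0.772, 1.13, 1.06 and 1.07 CPM after halauxifen-methyl, against 6.88, 5.39, 5.93 and 8.79 CPM after water (log2 fold change -2.73 ± 0.47, adjusted p = 0.00342), and SAUR36 (HW_15561), with 34.5, 53.4, 102 and 46.03 CPM after halauxifen-methyl, against 159, 171, 171 and 127 CPM after water (log2 fold change -1.42 ± 0.30, adjusted p = 0.0111). The call of AT2G36210 was lost in the fit of all 32 libraries (adjusted p = 0.0865). SAUR36 is known in *A. thaliana* for promoting leaf senescence.

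Genes that perceive, carry or make auxin changed in both directions. Of the ARFs, 2 of 22 tested members were higher and 1 lower (median log2 fold change 0.37). The count of lower members was 2 without halauxifen-methyl replicate 4. ARF19 (HW_54012), an activator, had 105, 80.3, 65.4 and 145 CPM after halauxifen-methyl, against 36.2, 39.999, 32.3 and 36.1 CPM after water (log2 fold change 1.45 ± 0.24, adjusted p = 0.00279). ETT (HW_10100) had 188, 203, 189 and 216 CPM after halauxifen-methyl, against 101, 121, 109.7 and 112 CPM after water (log2 fold change 0.84 ± 0.13, adjusted p = 0.00224). ARF8 (HW_35548) had 3.22, 2.31, 4.53 and 2.94 CPM after halauxifen-methyl, against 31.3, 10.1, 8.04 and 17.02 CPM after water (log2 fold change -2.36 ± 0.47, adjusted p = 0.00753). The receptor list had 7 tested members, of which AFB4 (HW_51096) was lower, with 8.54, 10.2, 6.296 and 5.71 CPM after halauxifen-methyl, against 15.4, 17.8, 16.2 and 20.1 CPM after water (log2 fold change -1.17 ± 0.27, adjusted p = 0.0156). That call was lost without water replicate 2 or 4 (adjusted p = 0.0505 to 0.0554). In auxin transport, 2 of 13 tested members were higher and 4 lower (median log2 fold change -0.30). Higher members numbered 1 without water replicate 2. PIN4 (HW_18932), an efflux carrier, was higher with 111, 75.4, 76.5 and 52.1 CPM after halauxifen-methyl, against 37.5, 22.2, 16.5 and 39.8 CPM after water (log2 fold change 1.44 ± 0.32, adjusted p = 0.0127), and so was the influx carrier LAX2 (HW_31643), with 52.1, 18.5, 22.9 and 76.04 CPM after halauxifen-methyl, against 5.64, 5.62, 12.5 and 13.8 CPM after water (log2 fold change 2.17 ± 0.50, adjusted p = 0.0152), whose call was lost without water replicate 2 (adjusted p = 0.05002). The efflux transporter ABCB1 (HW_4002) was lower, with 54.8, 33.4, 39.6 and 53.9 CPM after halauxifen-methyl, against 166, 158, 163 and 136 CPM after water (log2 fold change -1.78 ± 0.19, adjusted p = 0.000235). The other 3 lower members were closest to AUX1, an influx carrier. HW_23551 had 54.6, 46.5, 58.5 and 45.7 CPM after halauxifen-methyl, against 109, 121, 121 and 137 CPM after water (log2 fold change -1.25 ± 0.15, adjusted p = 0.000452), and HW_42210 had 130.2, 139, 115 and 99.8 CPM after halauxifen-methyl, against 247, 198, 264 and 231 CPM after water (log2 fold change -0.96 ± 0.16, adjusted p = 0.0033). Of 7 tested genes for auxin synthesis and oxidation, TAR2 (HW_6780), an aminotransferase of auxin synthesis, was lower with 0.363, 0.313, 0.354 and 0.214 CPM after halauxifen-methyl, against 7.36, 2.23, 3.43 and 4.82 CPM after water (log2 fold change -3.82 ± 0.68, adjusted p = 0.00422), a call that was lost in the fit of all 32 libraries (adjusted p = 0.064). Without water replicate 1 another member of that list was lower as well.

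Ethylene genes changed in both directions in synthesis and were called higher in signalling. Ethylene is made from methionine by ACC synthases and ACC oxidases. Of 5 tested genes placed in these families by the name of their best hit, 1 was higher and 2 lower (median log2 fold change -0.45). Whether each of them, ACS10 and ACS12 included, encodes an active enzyme of ethylene synthesis was not tested. EFE (HW_34088), an ACC oxidase and the most abundant called gene that rose, had 8893, 14263, 9209 and 6265 CPM after halauxifen-methyl, against 2714, 2618, 3059 and 2629.9 CPM after water (log2 fold change 1.81 ± 0.26, adjusted p = 0.00138). Another ACC oxidase, EFE (HW_15637), had 2.81, 3.79, 4.598 and 3.79 CPM after halauxifen-methyl, against 26.9, 20.6, 20.5 and 21.6 CPM after water (log2 fold change -2.58 ± 0.26, adjusted p = 0.000162). ACS10 (HW_7316) had 10.2, 7.12, 16.6 and 27.4 CPM after halauxifen-methyl, against 38.1, 52.1, 66.4 and 69.7 CPM after water (log2 fold change -1.89 ± 0.39, adjusted p = 0.00969). ACS6 (HW_42905), an ACC synthase that the word search behind the list missed and that was added after its values were seen, was higher with 79.9, 101, 118 and 98.8 CPM after halauxifen-methyl, against 14.1, 50.4, 35.5 and 45.7 CPM after water (log2 fold change 1.45 ± 0.33, adjusted p = 0.016), a call that was lost without water replicate 3 (adjusted p = 0.0525). ACS12 (HW_27564) and EFE (HW_41903) did not pass the test, with log2 fold changes of -0.45 ± 0.26 (adjusted p = 0.313) and 1.48 ± 0.90 (adjusted p = 0.346). Among receptors and signalling genes, 5 of 14 tested members were higher and 0 lower (median log2 fold change 0.50). The receptor ETR2 (HW_40382) had 139, 177, 126 and 185 CPM after halauxifen-methyl, against 7.71, 13.8, 8.64 and 12.7 CPM after water (log2 fold change 3.87 ± 0.25, adjusted p = 1.85e-05). EBF2 (HW_16761), an F-box protein that removes the regulator EIN3, had 71.5, 107, 89.9 and 66.9 CPM after halauxifen-methyl, against 4.69, 8.48, 14.6 and 11.7 CPM after water (log2 fold change 3.08 ± 0.33, adjusted p = 0.000253). The kinase CTR1 (HW_42567) had 154, 166, 179.97 and 128 CPM after halauxifen-methyl, against 57.8, 68.4, 64.2 and 74.4 CPM after water (log2 fold change 1.24 ± 0.16, adjusted p = 0.000612). These 3 proteins restrain ethylene signalling in *A. thaliana*, and the groups did not overlap for any of them.

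Jasmonate genes were higher in synthesis and among the repressors. For synthesis, 4 of 14 tested members were higher and 0 lower (median log2 fold change 0.93). AOC3 (HW_8476), an allene oxide cyclase, had 535, 883, 920.2 and 469 CPM after halauxifen-methyl, against 248, 208, 240.3 and 194 CPM after water (log2 fold change 1.66 ± 0.24, adjusted p = 0.00148). LOX4 (HW_27716), a lipoxygenase, had 136, 255, 192 and 147 CPM after halauxifen-methyl, against 64.9, 62.3, 64.8 and 70.98 CPM after water (log2 fold change 1.47 ± 0.21, adjusted p = 0.00113). OPR3 (HW_15201), a reductase of a later step, had 90.9, 126, 132 and 94.5 CPM after halauxifen-methyl, against 71.02, 45.6, 52.02 and 44.9 CPM after water (log2 fold change 1.06 ± 0.20, adjusted p = 0.00661). AOS (HW_13814), the step between LOX and AOC, had 34.6, 111, 96.9 and 56.6 CPM after halauxifen-methyl, against 55.5, 33.98, 34.02 and 40.9 CPM after water, and did not pass the test (log2 fold change 0.86 ± 0.34, adjusted p = 0.128). Halauxifen-methyl replicates 2 and 3 were the highest for AOC3 and for AOS. Of the JAZ repressors, which jasmonate both removes and induces, 4 of 8 tested members were higher and 0 lower (median log2 fold change 1.60). The count of lower members was 1 without halauxifen-methyl replicate 2. TIFY10B (HW_42131) had 329, 1219, 836 and 664 CPM after halauxifen-methyl, against 4.69, 28.3, 17.5 and 8.51 CPM after water (log2 fold change 5.69 ± 0.63, adjusted p = 0.000286). JAZ6 (HW_3107) had 175, 436, 192 and 263 CPM after halauxifen-methyl, against 4.87, 14.4, 6.33 and 13.4 CPM after water (log2 fold change 4.77 ± 0.45, adjusted p = 0.000118). JAZ1 (HW_32578) had 235, 524, 402 and 397 CPM after halauxifen-methyl, against 62.1, 99.02, 60.99 and 72.6 CPM after water (log2 fold change 2.40 ± 0.26, adjusted p = 0.000272). CYP94C1 (HW_17233), which oxidises the active jasmonate-isoleucine in *A. thaliana*, had 29.6, 40.3, 20.7 and 15.6 CPM after halauxifen-methyl, against 0, 0.172, 0 and 0 CPM after water (adjusted p = 6.87e-05), and its water libraries held 3 counts or fewer together.

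Abscisic acid (ABA) is made from carotenoids through the NCED enzymes and broken down by the CYP707A hydroxylases. None of the 4 tested genes placed in the NCED list by the name of their best hit passed the quasi-likelihood test. Of these, 2 had positive and 2 negative log2 fold changes. Whether each of them, those named NCED4 included, encodes an enzyme of ABA synthesis was not tested. The paper, using other tests on the same libraries, called NCED5 (HW_34273) and NCED4 (HW_33543) higher after halauxifen-methyl at 6 HAT. It also reports higher NCED by quantitative PCR in other plants. NCED5 (HW_34273) had 6.81, 4.97, 4.24 and 5.98 CPM after halauxifen-methyl, against 0, 0.745, 1.25 and 1.08 CPM after water (log2 fold change 2.83 ± 0.91, adjusted p = 0.0654), with no overlap, and it was called higher without water replicate 1 (log2 fold change 2.42 ± 0.40, adjusted p = 0.00369). NCED4 (HW_13601), the most abundant, had 531, 527, 673 and 436 CPM after halauxifen-methyl, against 686, 969, 855 and 649 CPM after water (log2 fold change -0.54 ± 0.20, adjusted p = 0.0969). NCED3 (HW_373) had 17.3, 17.3, 22.1 and 14.2 CPM after halauxifen-methyl, against 5.64, 24.8, 48.7 and 21.7 CPM after water (log2 fold change -0.51 ± 0.49, adjusted p = 0.592). NCED4 (HW_33543) had 3.22, 2.11, 0.778 and 0.587 CPM after halauxifen-methyl, against 0, 0.344, 0 and 0.227 CPM after water (log2 fold change 3.48 ± 1.30, adjusted p = 0.105). Of 7 tested genes for other steps of synthesis, ABA2 (HW_26707), a dehydrogenase, was lower with 8.08, 8.45, 12.2 and 5.87 CPM after halauxifen-methyl, against 11.9, 23.6, 29.9 and 21.3 CPM after water (log2 fold change -1.33 ± 0.33, adjusted p = 0.0223), with overlapping groups, and the call was lost without halauxifen-methyl replicate 1 or 2 or water replicate 2, 3 or 4 (adjusted p = 0.057 to 0.0806). In that list 2 members were called higher without halauxifen-methyl replicate 4 and 1 without water replicate 1. ABA3 (HW_29530) had 104, 86.7, 91.3 and 80.7 CPM after halauxifen-methyl, against 74.5, 67.7, 63.4 and 58.04 CPM after water (log2 fold change 0.46 ± 0.15, adjusted p = 0.066). Of 4 hydroxylases, CYP707A4 (HW_29043) was lower, with 3.72, 1.76, 2.12 and 2.403 CPM after halauxifen-methyl, against 10.3, 7.22, 11.01 and 8.17 CPM after water (log2 fold change -1.87 ± 0.40, adjusted p = 0.0113), a call that was lost in the fit of all 32 libraries (adjusted p = 0.107). The 3 other hydroxylases had positive log2 fold changes and did not pass the test (median of all 4, 0.65).

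In the ABA response list, 6 of 20 tested members were higher and 0 lower (median log2 fold change 0.66). RD26 (HW_34355), a NAC factor, had 167, 223, 254 and 134 CPM after halauxifen-methyl, against 8.07, 11.6, 12.6 and 10.7 CPM after water (log2 fold change 4.18 ± 0.25, adjusted p = 1.85e-05). HAI2 (HW_16973), a protein phosphatase, had 205, 181, 229.8 and 184 CPM after halauxifen-methyl, against 38.3, 50.4, 77.5 and 39.8 CPM after water (log2 fold change 1.96 ± 0.24, adjusted p = 0.000453). HB-7 (HW_52703) had 109, 134, 153 and 109 CPM after halauxifen-methyl, against 26.2, 50.3, 47.4 and 32.1 CPM after water (log2 fold change 1.70 ± 0.24, adjusted p = 0.00107). CCD1 (HW_21726), whose best hit is a dioxygenase that cleaves carotenoids outside the ABA pathway, had 551, 738, 665 and 560.2 CPM after halauxifen-methyl, against 23.5, 34.3, 21.03 and 23.3 CPM after water (log2 fold change 4.62 ± 0.22, adjusted p = 3.76e-06), with 12 exons and 1719 coding bases. By the E-values in the paper, this match is weaker than those of NCED5 (HW_34273) and NCED4 (HW_33543).

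Cytokinin genes changed in both directions. Of 4 tested genes for synthesis and activation, 3 were higher and 0 lower. LOG3 (HW_13899), which releases active cytokinin, had 112, 108, 81.9 and 105 CPM after halauxifen-methyl, against 36.6, 34.04, 38.6 and 35.6 CPM after water (log2 fold change 1.49 ± 0.15, adjusted p = 0.000175). The second LOG3 (HW_50074) had 249.7, 260.2, 288 and 334 CPM after halauxifen-methyl, against 137, 152, 107 and 111 CPM after water (log2 fold change 1.16 ± 0.17, adjusted p = 0.00159). IPT3 (HW_32711), which makes the precursor, had 2.95, 1.52, 8.28 and 4.22 CPM after halauxifen-methyl, against 0, 0, 0 and 0.113 CPM after water (adjusted p = 0.0041). Cytokinin oxidases remove the hormone, and CKX7 (HW_1773) was lower, with 4.27, 6.999, 5.31 and 6.995 CPM after halauxifen-methyl, against 34.2, 37.02, 34.5 and 49.2 CPM after water (log2 fold change -2.72 ± 0.24, adjusted p = 8.24e-05), while the 3 other tested members did not pass. Of the cytokinin response regulators, type-A and type-B members together, 0 of 7 tested members were higher and 4 lower (median log2 fold change -0.91). Higher members numbered 1 without halauxifen-methyl replicate 3 or water replicate 1. RR5 (HW_40511) had 11.3, 6.84, 11.2 and 10.3 CPM after halauxifen-methyl, against 70.5, 79.1, 82.5 and 89.7 CPM after water (log2 fold change -3.02 ± 0.20, adjusted p = 2.43e-05). RR5 (HW_46258) had 6.58, 8.33, 8.42 and 7.48 CPM after halauxifen-methyl, against 57.8, 36.7, 37.2 and 29.3 CPM after water (log2 fold change -2.38 ± 0.24, adjusted p = 0.000178). ARR9 (HW_43750) had 5.22, 3.91, 7.64 and 5.29 CPM after halauxifen-methyl, against 21.4, 44.01, 46.3 and 38.2 CPM after water (log2 fold change -2.77 ± 0.31, adjusted p = 0.000282). These 3 are type-A regulators, which cytokinin induces in *A. thaliana*, and the other lower member, RR1 (HW_30629), is of type B (log2 fold change -0.91, adjusted p = 0.00489). GA3OX1 (HW_32323), the last enzyme of gibberellin synthesis, had 97.3, 136, 141 and 52.5 CPM after halauxifen-methyl, against 36.5, 36.96, 59.1 and 29.6 CPM after water (log2 fold change 1.40 ± 0.32, adjusted p = 0.0156), with overlapping groups, and its call was lost without water replicate 2 or 4 (adjusted p = 0.0518 to 0.0522). DWF1 (HW_21358), a sterol reductase needed for brassinosteroids, had 15.8, 11.1, 21.9 and 18.05 CPM after halauxifen-methyl, against 176, 177, 158 and 175 CPM after water (log2 fold change -3.36 ± 0.22, adjusted p = 1.88e-05).

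**Figure D2:**
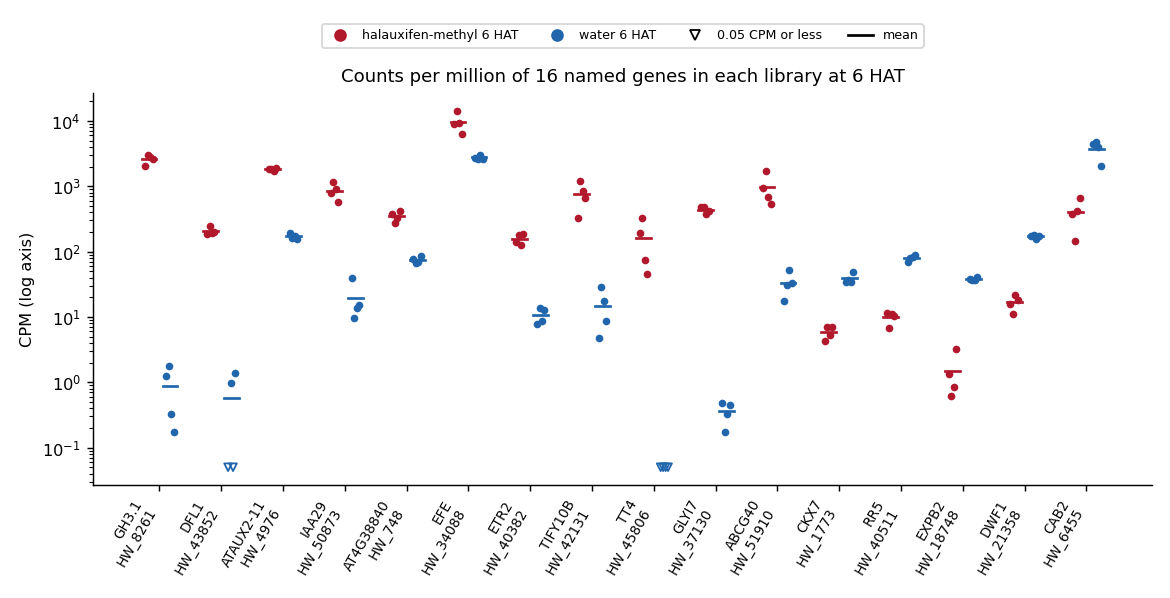
CPM of 16 named genes in each of the 8 libraries on a log axis, halauxifen-methyl left and water right for each gene, with the group mean as a bar and values of 0.05 CPM or less as open triangles. The 2 groups are apart for every gene shown, from GH3.1 (2044 to 3018 CPM against 0.1702 to 1.78 CPM) to CAB2 (146 to 667 CPM against 2059 to 4676 CPM).

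Photosynthesis genes were lower after halauxifen-methyl, from light capture to carbon fixation. Of the light-harvesting antenna genes, 0 of 23 tested members were higher and 16 lower (median log2 fold change -1.75). Members of photosystem I were lower for 5 of 8 tested, of the photosystem II list for 6 of 25, of electron transport and ATP synthase for 8 of 21, of the Calvin cycle for 11 of 21 and of photorespiration for 8 of 13, and no member of these 6 lists was higher. The photosystem II list was drawn from annotation. It also holds genes named PnsL1, PnsL2, PnsL3 and PPD5, which are not subunits of that photosystem. Together the antenna genes gave 58788, 38887, 69231 and 92094 CPM after halauxifen-methyl, against 170835, 178656, 161289 and 97709.8 CPM after water. Halauxifen-methyl replicate 4 and water replicate 4 lay close for this sum, although the groups did not overlap. The count of lower members was 9 without halauxifen-methyl replicate 1 and 10 without water replicate 2 or 3. For photosystem I, lower members numbered 1 without halauxifen-methyl replicate 1 or water replicate 2 or 3 and 8 without halauxifen-methyl replicate 4. For photosystem II, the count of higher members was 1 without water replicate 1, and lower members numbered 2 without halauxifen-methyl replicate 1 and 3 without water replicate 2 or 3. For electron transport and ATP synthase, the count of lower members was 3 without halauxifen-methyl replicate 1 and 4 without water replicate 2 or 3. For the Calvin cycle, lower members numbered 6 without water replicate 2 and 7 without halauxifen-methyl replicate 1. For photorespiration, the count of higher members was 1 without water replicate 1, and lower members numbered 4 without halauxifen-methyl replicate 1 and 5 without water replicate 2.

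CAB2 (HW_6455), an antenna protein of photosystem II, had 376, 146, 417 and 667 CPM after halauxifen-methyl, against 4426, 4676, 3923 and 2059 CPM after water (log2 fold change -3.23 ± 0.45, adjusted p = 0.00107). LHB1B1 (HW_4678) was a less abundant member with a larger change, at 3.22, 1.17, 8.35 and 15.1 CPM after halauxifen-methyl, against 255, 227, 172 and 101 CPM after water (log2 fold change -4.78 ± 0.70, adjusted p = 0.00142), and LHCB2.2 (HW_44269) had 751, 456, 1109.6 and 992 CPM after halauxifen-methyl, against 4137, 4809, 4027 and 2202 CPM after water (log2 fold change -2.20 ± 0.33, adjusted p = 0.00167). CAB1 (HW_47187), the most abundant called gene that fell, had 18977, 12699, 23232 and 25721 CPM after halauxifen-methyl, against 54109, 49402, 45234 and 30027 CPM after water (log2 fold change -1.15 ± 0.30, adjusted p = 0.028), a call that was lost without halauxifen-methyl replicate 1, 2 or 3 or water replicate 1, 2 or 3 (adjusted p = 0.0546 to 0.0942) and with no filter on low counts (adjusted p = 0.0693). In photosystem I, PSAN (HW_31687) had 3611, 2068, 4124 and 6458 CPM after halauxifen-methyl, against 12096, 13108, 11463 and 7430.1 CPM after water (log2 fold change -1.44 ± 0.34, adjusted p = 0.0177). In the oxygen-evolving part of photosystem II, PSBQ-2 (HW_49334) had 4694, 3400.1, 5856 and 7029 CPM after halauxifen-methyl, against 11172, 15304, 14029 and 9015 CPM after water (log2 fold change -1.24 ± 0.28, adjusted p = 0.0143). PSBO2 (HW_34248) had 5271, 4182, 8546 and 8306 CPM after halauxifen-methyl, against 16339, 18145, 15398 and 11903 CPM after water (log2 fold change -1.23 ± 0.28, adjusted p = 0.0154). These calls were lost for PSAN without halauxifen-methyl replicate 1 or water replicate 2 or 3 (adjusted p = 0.0534 to 0.0616), for PSBQ-2 without halauxifen-methyl replicate 1 or water replicate 3 (adjusted p = 0.0525 to 0.0544) and for PSBO2 without halauxifen-methyl replicate 1 or water replicate 2 (adjusted p = 0.0518 to 0.0604).

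Ferredoxin, the electron carrier behind photosystem I, was lower as FED A (HW_30946), with 208, 112, 302 and 346 CPM after halauxifen-methyl, against 833, 1036, 915 and 641 CPM after water (log2 fold change -1.82 ± 0.32, adjusted p = 0.00434). FNR2 (HW_29826), which reduces NADP with it, had 1204, 1004, 1908 and 1791 CPM after halauxifen-methyl, against 2937, 4003, 3220.04 and 3097 CPM after water (log2 fold change -1.17 ± 0.24, adjusted p = 0.00949). In carbon fixation, the rubisco small subunit RBCS1B (HW_32431) had 3849, 1748, 7239.9 and 7829 CPM after halauxifen-methyl, against 14313, 25476, 17554 and 11082 CPM after water (log2 fold change -1.73 ± 0.46, adjusted p = 0.0292), and this call was lost without halauxifen-methyl replicate 1 or water replicate 2 or 3 (adjusted p = 0.0738 to 0.0936). RCA (HW_44147), which keeps rubisco active, had 1014, 655, 1642 and 1809.7 CPM after halauxifen-methyl, against 5232, 4393, 3757 and 3038 CPM after water (log2 fold change -1.68 ± 0.33, adjusted p = 0.00693). FBA2 (HW_3712), an aldolase, had 145, 109.7, 280.1 and 293 CPM after halauxifen-methyl, against 1214, 1091, 1039 and 665 CPM after water (log2 fold change -2.28 ± 0.34, adjusted p = 0.00168). HCEF1 (HW_30799), a fructose bisphosphatase, had 144, 97.2, 251 and 318 CPM after halauxifen-methyl, against 712, 836, 645 and 610.1 CPM after water (log2 fold change -1.79 ± 0.33, adjusted p = 0.0056). SHM1 (HW_13463) of photorespiration had 1288, 1204, 1779 and 1465 CPM after halauxifen-methyl, against 3016, 3224, 2677 and 2521 CPM after water (log2 fold change -0.996 ± 0.19, adjusted p = 0.00611). 

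In chlorophyll synthesis, 1 of 18 tested members were higher and 8 lower (median log2 fold change -0.99). PORA (HW_17694), which makes chlorophyllide in the light, had 386, 251, 499.9 and 623 CPM after halauxifen-methyl, against 1652, 2012, 1446 and 1235 CPM after water (log2 fold change -1.85 ± 0.28, adjusted p = 0.00196). The 2 genes for glutamyl-tRNA reductase, the first enzyme of the pathway, moved in opposite directions. HEMA1 (HW_49161) had 209, 169.6, 289 and 277 CPM after halauxifen-methyl, against 456, 568, 470.3 and 626 CPM after water (log2 fold change -1.17 ± 0.21, adjusted p = 0.00428). The less abundant HEMA2 (HW_13480) had 39.05, 51.6, 42.7 and 51.7 CPM after halauxifen-methyl, against 13.1, 26.4, 17.6 and 23.2 CPM after water (log2 fold change 1.20 ± 0.23, adjusted p = 0.00682). Of 7 tested genes for chlorophyll breakdown and senescence, 3 were higher and 0 lower. The count of higher members was 1 without halauxifen-methyl replicate 2 or 3 or water replicate 3 or 4. NYE1 (HW_51129), which removes magnesium from chlorophyll, had 13.8, 17.8, 24.5 and 16.7 CPM after halauxifen-methyl, against 6.11, 6.82, 3.297 and 3.01 CPM after water (log2 fold change 1.92 ± 0.36, adjusted p = 0.0054). Plastid isoprenoid and carotenoid genes were lower for 6 of 15 and higher for 0, with CLA1 (HW_32564), the entry enzyme, at 11.8, 16.3, 19.5 and 7.58 CPM after halauxifen-methyl, against 44.3, 32.1, 49.1 and 43.9 CPM after water (log2 fold change -1.62 ± 0.29, adjusted p = 0.00435). Lower members numbered 1 without halauxifen-methyl replicate 1 or water replicate 2 and 3 without halauxifen-methyl replicate 2 or water replicate 3 or 4. The mesophyll marker genes (rubisco, its activase and antenna proteins, all 12 of which are also in the photosynthesis lists) summed to 24294, 13954, 34298 and 36604 CPM after halauxifen-methyl, against 70323, 96888, 82558 and 53736 CPM after water, with 8 of 9 tested members lower. In whole leaves, fewer cells of a type and less RNA per cell cannot be told apart.

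**Figure D3:**
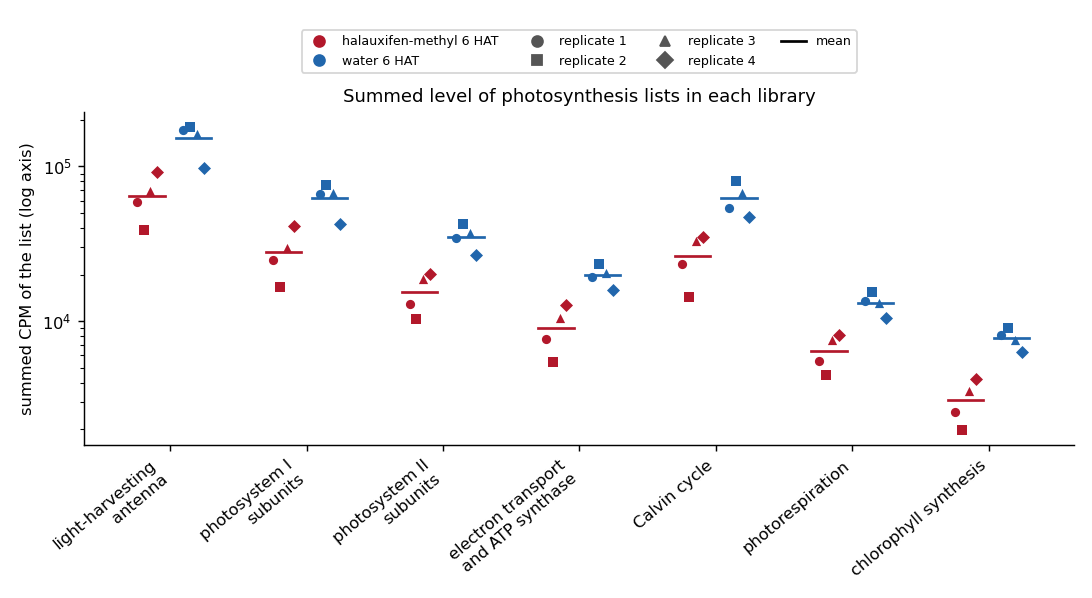
Summed CPM of 7 photosynthesis lists in each library on a log axis, halauxifen-methyl left and water right, with the replicate as the symbol and the group mean as a bar. In all 7 lists halauxifen-methyl replicate 2 is the lowest library and water replicate 4 the lowest water library, and every halauxifen-methyl library is below every water library.

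Cell wall genes separated by family. Xyloglucan endotransglucosylases, which cut and rejoin wall xyloglucan, had 6 of 9 tested members higher and 0 lower (median log2 fold change 3.36). XTH16 (HW_19181) had 523, 509.5, 204 and 421 CPM after halauxifen-methyl, against 4.63, 19.9, 14.2 and 17.5 CPM after water (log2 fold change 4.88 ± 0.48, adjusted p = 0.000155). XTH15 (HW_42168) had 6.76, 16.97, 21.6 and 12.8 CPM after halauxifen-methyl, against 0 counts in every library after water, which is at least 81.1-fold higher. Of 11 expansins, wall-loosening proteins, 1 was higher and 2 lower. EXLB1 (HW_47337) had 84.1, 111, 52.2 and 49.8 CPM after halauxifen-methyl, against 0, 1.38, 0.396 and 0.681 CPM after water (log2 fold change 6.89 ± 0.68, adjusted p = 0.000155). EXPB2 (HW_18748) had 1.32, 0.626, 0.849 and 3.26 CPM after halauxifen-methyl, against 38.4, 36.6, 36.7 and 41.2 CPM after water (log2 fold change -4.66 ± 0.48, adjusted p = 0.000179). EXPA13 (HW_50273) had 30.9, 33.3, 40.4 and 45.7 CPM after halauxifen-methyl, against 76.2, 65.96, 67.1 and 56.2 CPM after water (log2 fold change -0.82 ± 0.18, adjusted p = 0.0112). The count of higher members was 2 without halauxifen-methyl replicate 2 or water replicate 1. Pectin enzymes had 3 higher and 3 lower of 19.

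The phenylpropanoid pathway, which leads to lignin and flavonoids, was higher at its entry. In the list of core enzymes, 13 of 35 tested members were higher and 3 lower (median log2 fold change 0.54). Lower members numbered 5 without halauxifen-methyl replicate 4. PAL1 (HW_49036), the first enzyme, had 216, 799, 604 and 504 CPM after halauxifen-methyl, against 44.8, 59.4, 24.5 and 55.8 CPM after water (log2 fold change 3.53 ± 0.42, adjusted p = 0.000416). PAL1 (HW_26165) had 120.4, 176, 166 and 53.1 CPM after halauxifen-methyl, against 5.34, 8.48, 3.56 and 2.84 CPM after water (log2 fold change 4.67 ± 0.47, adjusted p = 0.000162). OMT1 (HW_2867), a methyltransferase, had 236, 447, 254 and 331 CPM after halauxifen-methyl, against 88.05, 73.4, 86.2 and 91.8 CPM after water (log2 fold change 1.90 ± 0.22, adjusted p = 0.00033), whereas HCT (HW_43117), at a branch toward lignin, was lower with 7.36, 10.3, 8.63 and 9.61 CPM after halauxifen-methyl, against 29.1, 25.1, 20.7 and 15.5 CPM after water (log2 fold change -1.33 ± 0.25, adjusted p = 0.00646). Chalcone synthase opens the flavonoid branch. TT4 (HW_45806), of 2 exons and 1170 coding bases, had 189.9, 328, 75.6 and 45.3 CPM after halauxifen-methyl, against 0 counts in every library after water, at least 889-fold higher, and MYB111 (HW_12443), a regulator of flavonol genes in *A. thaliana*, had 73.3, 171, 93.7 and 111 CPM after halauxifen-methyl, against 34.9, 23.5, 24.6 and 26.6 CPM after water (log2 fold change 2.03 ± 0.27, adjusted p = 0.000759). TT4 and MYB111 were the 2 called genes among 12 tested in the flavonoid list, and 1 lower member was added without water replicate 1. ADT6 (HW_35618), which supplies phenylalanine, had 330.3, 342, 332 and 348 CPM after halauxifen-methyl, against 59.6, 61.03, 46.2 and 41.6 CPM after water (log2 fold change 2.70 ± 0.17, adjusted p = 1.85e-05).

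Isoprenoid and lipid genes were also rearranged. HMG1 (HW_13619), the control point of the cytosolic mevalonate pathway, had 101, 86.1, 56.5 and 101 CPM after halauxifen-methyl, against 4.21, 7.97, 3.89 and 7.77 CPM after water (log2 fold change 3.85 ± 0.32, adjusted p = 5.73e-05). Of terpene synthases, 4 of 24 tested members were higher and 2 lower (median log2 fold change 0.29). The count of lower members was 0 without halauxifen-methyl replicate 1 or water replicate 2 and 1 without halauxifen-methyl replicate 2 or 3 or water replicate 3 or 4. TPS14 (HW_5080) had 76.9, 157, 65.3 and 77.9 CPM after halauxifen-methyl, against 10.1, 16.6, 10.9 and 8.91 CPM after water (log2 fold change 3.02 ± 0.33, adjusted p = 0.000245), with halauxifen-methyl replicate 2 the highest. CYP82G1 (HW_28331), which makes volatile homoterpenes in *A. thaliana*, had 293, 252, 231 and 301 CPM after halauxifen-methyl, against 23.6, 19.4, 9.89 and 17.8 CPM after water (log2 fold change 3.93 ± 0.27, adjusted p = 2.43e-05). For fatty acids, 6 of 35 tested members were higher and 6 lower (median log2 fold change -0.15). ACC1 (HW_46663), the cytosolic acetyl-CoA carboxylase, had 709, 611, 627 and 519.7 CPM after halauxifen-methyl, against 191, 173, 154 and 198 CPM after water (log2 fold change 1.79 ± 0.16, adjusted p = 9.58e-05). KCS19 (HW_40978), an elongase, had 2.22, 2.07, 2.9004 and 2.78 CPM after halauxifen-methyl, against 20.1, 33.98, 26.97 and 25.1 CPM after water (log2 fold change -3.41 ± 0.27, adjusted p = 4.91e-05).

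Among regulators of stress responses, more members were called higher than lower. Of the AP2/ERF factors, 21 of 55 tested members were higher and 2 lower (median log2 fold change 0.51). ERF-1 (HW_50164), which binds ethylene response elements, had 214, 452, 378 and 156 CPM after halauxifen-methyl, against 23.3, 32.8, 25.3 and 13.8 CPM after water (log2 fold change 3.66 ± 0.39, adjusted p = 0.000233). ERF1 (HW_441), which answers to ethylene and jasmonate, had 116, 337, 125 and 70.8 CPM after halauxifen-methyl, against 7.36, 5.62, 7.12 and 3.01 CPM after water (log2 fold change 4.81 ± 0.53, adjusted p = 0.000269). AT4G13620 (HW_50123) had 154, 279, 129.6 and 168 CPM after halauxifen-methyl, against 11.1, 8.48, 8.97 and 7.83 CPM after water (log2 fold change 4.33 ± 0.27, adjusted p = 1.85e-05). WRKY factors were higher for 9 of 29 and lower for 0, among them WRKY33 (HW_29161), with 139, 219, 183 and 105 CPM after halauxifen-methyl, against 21.5, 27.2, 38.6 and 20.3 CPM after water (log2 fold change 2.58 ± 0.28, adjusted p = 0.000272). NAC factors were higher for 9 of 31 and lower for 1. ATAF1 (HW_35806) had 389, 694, 623 and 383 CPM after halauxifen-methyl, against 70.1, 87.4, 109 and 66.6 CPM after water (log2 fold change 2.65 ± 0.26, adjusted p = 0.000155). NAC032 (HW_4004) had 151, 272, 309 and 98.1 CPM after halauxifen-methyl, against 0.0593, 5.16, 1.12 and 0.908 CPM after water (log2 fold change 6.82 ± 0.87, adjusted p = 0.000675). Lower members numbered 0 without halauxifen-methyl replicate 1, 2 or 4 or water replicate 2 or 4 and 2 without water replicate 1.

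Other families of regulators were divided. MYB factors had 8 higher and 3 lower of 36, homeobox factors 6 and 6 of 34, and bHLH factors 5 and 10 of 64. For MYB factors, the count of higher members was 5 without halauxifen-methyl replicate 1 or water replicate 2, and lower members numbered 5 without water replicate 1. For homeobox factors, the count of higher members was 3 without halauxifen-methyl replicate 1 or 2 or water replicate 2. For bHLH factors, higher members numbered 3 without halauxifen-methyl replicate 2 or water replicate 2 or 4 and 8 without water replicate 1. MYB77 (HW_9614), which works with ARFs in *A. thaliana*, had 26.7, 46.5, 53.3 and 33.9 CPM after halauxifen-methyl, against 1.78, 0.974, 0.725 and 0.3404 CPM after water (log2 fold change 5.38 ± 0.47, adjusted p = 7.74e-05). HEC1 (HW_4581) had 39.5, 38.9, 31.1 and 36.4 CPM after halauxifen-methyl, against 5.22, 2.92, 3.099 and 2.496 CPM after water (log2 fold change 3.41 ± 0.27, adjusted p = 5.42e-05) and its partner in *A. thaliana* fruit development, SPT (HW_6396), had 98.8, 49.5, 63.2 and 98.8 CPM after halauxifen-methyl, against 17.4, 11.003, 7.78 and 7.72 CPM after water (log2 fold change 2.82 ± 0.33, adjusted p = 0.000416). AtHB23 (HW_100), of the homeobox family, had 1.95, 1.45, 2.12 and 4.27 CPM after halauxifen-methyl, against 20.3, 23.2, 30.5 and 29.4 CPM after water (log2 fold change -3.40 ± 0.37, adjusted p = 0.00027). Of the heat shock proteins and their factors, 18 of 90 tested members were higher and 2 lower (median log2 fold change 0.30). The count of lower members was 1 without halauxifen-methyl replicate 1 or 3 or water replicate 2, 3 or 4 and 5 without halauxifen-methyl replicate 4 or water replicate 1. HSP70 (HW_23169) had 176, 719.8, 1373 and 1289 CPM after halauxifen-methyl, against 20.5, 50.1, 74.2 and 30.2 CPM after water (log2 fold change 4.35 ± 0.65, adjusted p = 0.00167). Halauxifen-methyl replicate 1 was the lowest of its group. The abundant HSC70-1 (HW_52493) had 6067, 8031, 8408 and 5841 CPM after halauxifen-methyl, against 3585, 3225, 3603 and 3068 CPM after water (log2 fold change 1.07 ± 0.20, adjusted p = 0.00566). Calcium sensors and kinases had 13 higher and 2 lower of 79. Higher members numbered 20 without water replicate 1, and the count of lower members was 1 without halauxifen-methyl replicate 1 or 2 or water replicate 2 or 3. CBL9 (HW_47767), a calcium sensor, had 344, 752, 549 and 276 CPM after halauxifen-methyl, against 34.2, 40.7, 36.6 and 44.3 CPM after water (log2 fold change 3.62 ± 0.32, adjusted p = 7.98e-05). Receptor-like kinases had 33 higher and 17 lower of 356, and ER (HW_19946), the ERECTA receptor of organ growth, was among the lower with 13.5, 10.2, 11.8 and 12.4 CPM after halauxifen-methyl, against 51.9, 46.3, 46.02 and 63.1 CPM after water (log2 fold change -2.11 ± 0.18, adjusted p = 7.5e-05). For these kinases, higher members numbered 21 without halauxifen-methyl replicate 1 or 2 or water replicate 3, and the count of lower members was 11 without water replicate 2.

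Families that modify and move foreign compounds were called in different shares. Of the UDP-glycosyltransferases, which attach sugars to hormones and xenobiotics, 24 of 96 tested members were higher and 2 lower (median log2 fold change 0.53). Lower members numbered 1 without halauxifen-methyl replicate 1 or water replicate 3 or 4. UGT73B1 (HW_26592) had 65.9, 150.00, 61.2 and 46.1 CPM after halauxifen-methyl, against 0, 1.26, 0 and 1.65 CPM after water (log2 fold change 6.75 ± 0.90, adjusted p = 0.000873). UGT85A1 (HW_45513) had 265, 318, 266 and 200.04 CPM after halauxifen-methyl, against 57.9, 69.4, 71.5 and 53.3 CPM after water (log2 fold change 2.06 ± 0.18, adjusted p = 8.59e-05), and UGT72B3 (HW_53424) was lower with 12.03, 7.19, 16.3 and 12.4 CPM after halauxifen-methyl, against 109, 84.98, 77.5 and 79.8 CPM after water (log2 fold change -2.88 ± 0.26, adjusted p = 8.26e-05). Cytochromes P450 had 15 higher and 15 lower of 136. The count of lower members was 9 without halauxifen-methyl replicate 2 or water replicate 4. CYP706A4 (HW_38937) was lower with 0.499, 0.0782, 0.212 and 0.694 CPM after halauxifen-methyl, against 14.9, 14.8, 13.8 and 13.4 CPM after water (log2 fold change -5.24 ± 0.61, adjusted p = 0.000345), and so was CYP706A6 (HW_8595), with 0.0454, 0.235, 0.212 and 0.427 CPM after halauxifen-methyl, against 8.72, 16.2, 5.41 and 12.1 CPM after water (log2 fold change -5.50 ± 0.70, adjusted p = 0.000602). Glutathione S-transferases had 1 higher and 2 lower of 20. Higher members numbered 2 without water replicate 1, and the count of lower members was 1 without halauxifen-methyl replicate 1 or water replicate 3 and 4 without halauxifen-methyl replicate 4 or water replicate 1. The higher one, GSTT3 (HW_3306), had 17.3, 36.7, 19.8 and 15.4 CPM after halauxifen-methyl, against 0.356, 0.6304, 1.52 and 0.738 CPM after water (log2 fold change 4.78 ± 0.51, adjusted p = 0.00023), while GSTT3 (HW_27290) was lower, with 0.409, 0.8603, 0 and 0.694 CPM after halauxifen-methyl, against 10.4, 2.98, 7.38 and 4.198 CPM after water (log2 fold change -3.62 ± 0.92, adjusted p = 0.0238), a call that was lost without halauxifen-methyl replicate 1 or water replicate 3 (adjusted p = 0.0673 to 0.0786) and in the fit of all 32 libraries (adjusted p = 0.151). ABC and MATE transporters had 13 higher and 18 lower of 81. ABCG40 (HW_51910), a plasma membrane transporter that carries ABA in *A. thaliana*, had 945, 1684, 683 and 533 CPM after halauxifen-methyl, against 17.5, 30.9, 51.5 and 32.9 CPM after water (log2 fold change 4.86 ± 0.46, adjusted p = 0.000116). AT1G71140 (HW_16266), a MATE transporter, had 143, 147, 154 and 133 CPM after halauxifen-methyl, against 25.8, 24.8, 19.98 and 15.9 CPM after water (log2 fold change 2.74 ± 0.19, adjusted p = 2.43e-05). GLYI7 (HW_37130), of the glyoxalase family, had 478, 477, 369.8 and 425 CPM after halauxifen-methyl, against 0.475, 0.172, 0.3297 and 0.454 CPM after water (log2 fold change 10.23 ± 0.30, adjusted p = 8.75e-08).

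Water and nitrogen transport changed as well. Aquaporins were lower for 5 of 15 and higher for 0. PIP2B (HW_2182) had 93.2, 91.2, 135 and 80.4 CPM after halauxifen-methyl, against 410.04, 400.3, 477 and 332 CPM after water (log2 fold change -2.02 ± 0.20, adjusted p = 0.00016). PIP1;4 (HW_30067) had 463, 494, 655 and 684 CPM after halauxifen-methyl, against 1965, 1532, 1690.3 and 1542 CPM after water (log2 fold change -1.55 ± 0.19, adjusted p = 0.000549). Lower members numbered 3 without halauxifen-methyl replicate 1, 2 or 4 or water replicate 2 or 3. Nitrate and amino acid transporters had 11 higher and 7 lower of 54. The count of higher members was 7 without halauxifen-methyl replicate 1 or water replicate 3, and lower members numbered 4 without halauxifen-methyl replicate 1 or water replicate 2. The 2 genes closest to NRT1.5, a carrier of nitrate into the xylem, moved in opposite directions. HW_17920 had 242, 281, 362 and 229 CPM after halauxifen-methyl, against 1.96, 2.06, 8.84 and 3.86 CPM after water (log2 fold change 6.07 ± 0.50, adjusted p = 6.09e-05), and HW_31193 had 13.98, 10.7, 18.5 and 11.7 CPM after halauxifen-methyl, against 61.3, 57.5, 61.4 and 64.96 CPM after water (log2 fold change -2.16 ± 0.20, adjusted p = 0.000105). TPPD (HW_54271), a trehalose-6-phosphate phosphatase of sugar signalling, had 267, 255, 198 and 331 CPM after halauxifen-methyl, against 5.52, 4.41, 5.87 and 6.52 CPM after water (log2 fold change 5.56 ± 0.23, adjusted p = 1.61e-06). Starch and sucrose genes had 5 higher and 8 lower of 49. The count of higher members was 2 without water replicate 3 and 3 without halauxifen-methyl replicate 1 or 2 or water replicate 2, and lower members numbered 5 without halauxifen-methyl replicate 1 or water replicate 2.

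Housekeeping lists had few called genes. Ribosomal proteins had 2 higher and 3 lower of 171 (median log2 fold change 0.01), histones 0 and 1 of 33, tubulin and actin 1 and 0 of 16, cell cycle and DNA replication 0 and 4 of 52, and the circadian clock 0 and 1 of 10. These shares are under the 14.7% of all tested genes. For ribosomal proteins, the count of higher members was 7 without halauxifen-methyl replicate 4, and lower members numbered 17 without halauxifen-methyl replicate 4. For histones, the count of lower members was 0 without halauxifen-methyl replicate 1, 2 or 3 or water replicate 2 or 3 and 7 without halauxifen-methyl replicate 4. For tubulin and actin, higher members numbered 0 without halauxifen-methyl replicate 1, 2 or 3 or water replicate 2, 3 or 4, and the count of lower members was 1 without halauxifen-methyl replicate 4. For the cell cycle, higher members numbered 1 without water replicate 1, and the count of lower members was 2 without water replicate 2 or 3. For the clock, higher members numbered 1 without water replicate 1.

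Some called genes were at 0 in 1 group. Among genes called higher, 32 had 0 counts in every water library, and among those called lower 2 had 0 counts in every halauxifen-methyl library. AT5G38200 (HW_21402), whose best hits in *A. thaliana* and in the wider protein database differ in kind, had 48.7 to 85.9 CPM after halauxifen-methyl and was at least 344-fold higher. ERF1 (HW_10339) had 2.72, 21.4, 5.23 and 3.36 CPM after halauxifen-methyl, against 0 counts in every library after water and was at least 45.6-fold higher, with halauxifen-methyl replicate 2 far above the others. AT5G61890 (HW_43116), another AP2/ERF factor, was at least 31.3-fold higher, AT3G47680 (HW_22524) at least 26.2-fold and AT3G15115 (HW_6751) at least 23.9-fold. On the lower side, GDU2 (HW_36827), a promoter of amino acid export, had 0 counts in every library after halauxifen-methyl, against 13.1, 7.97, 5.604 and 3.46 CPM after water and was at least 48.1-fold lower. ACD1-LIKE (HW_50928) was at least 15.8-fold lower, with 0 counts in every library after halauxifen-methyl, against 5.64, 1.66, 1.52 and 1.08 CPM after water. ZFP1 (HW_45617), a zinc finger protein, had 0.272, 0, 0 and 0 CPM after halauxifen-methyl, against 4.03, 8.65, 10.2 and 8.06 CPM after water (log2 fold change -6.61 ± 1.16, adjusted p = 0.00366). THI1 (HW_5037), of thiamine synthesis, had 0.136, 0, 0.283 and 0.107 CPM after halauxifen-methyl, against 10.8, 11.6, 6.99 and 2.099 CPM after water (log2 fold change -5.93 ± 0.98, adjusted p = 0.00278). AT5G38790 (HW_8551), of unknown function, had 0, 0, 0.141 and 0.267 CPM after halauxifen-methyl, against 15.2, 6.07, 6.59 and 9.08 CPM after water (log2 fold change -6.52 ± 1.04, adjusted p = 0.00221). AT3G42660 (HW_45312), a WD-40 repeat protein, had 0.0454, 0, 0.141 and 0 CPM after halauxifen-methyl, against 8.43, 4.53, 5.67 and 5.67 CPM after water (adjusted p = 0.00116). GSTF12 (HW_37760), a phi-class glutathione S-transferase, had 0, 0, 0.212 and 0 CPM after halauxifen-methyl, against 3.44, 2.41, 2.51 and 3.404 CPM after water (adjusted p = 0.0134).

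Genes with no *A. thaliana* hit made up 830 of those tested, and 57 of them were higher and 26 lower, which is 10% of them, against 15.0% of the genes with a hit. HW_37057 had 7.81, 28.04, 8.14 and 22.6 CPM after halauxifen-methyl, against 0 counts in every library after water, at least 92.8-fold higher, and HW_18984 had 9.44, 5.94, 4.53 and 19.9 CPM after halauxifen-methyl, against 0 counts in every library after water, at least 55.5-fold higher. On the lower side, HW_33302 had 16.7, 7.899, 47.8 and 13.99 CPM after halauxifen-methyl, against 146, 167, 111 and 123 CPM after water (log2 fold change -2.67 ± 0.48, adjusted p = 0.00466), and HW_49875 had 35.96, 22.8, 98.3 and 28.2 CPM after halauxifen-methyl, against 225, 316, 304 and 202 CPM after water (log2 fold change -2.50 ± 0.44, adjusted p = 0.00397). Called genes could also be described by their structure. Of the higher genes 18.8% had a single coding exon, as had 11.4% of the lower genes and 10.9% of the tested genes that were not called, and the median coding length was 1142, 1137 and 1182 bases. Among 3586 pairs of neighbouring tested genes on a contig, both were higher in 52 and both lower in 26, and 12 and 5 of these pairs shared their best hit, such as the PAL1 pair HW_26164 and HW_26165.

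Markers of other cell types were few among the tested genes. The guard cell list had 2 tested members, with log2 fold changes of opposite sign. KAT1 (HW_50228), a potassium channel, was higher with 67.1, 92.5, 82.7 and 52.7 CPM after halauxifen-methyl, against 10.3, 11.98, 8.31 and 10.2 CPM after water (log2 fold change 2.85 ± 0.22, adjusted p = 4.56e-05). The other guard cell member had a negative log2 fold change and did not pass the test. Of 4 phloem markers 3 were lower, all closest to SWEET12, a sugar exporter. SWEET12 (HW_45050) had 120.4, 64.01, 88.6 and 91.6 CPM after halauxifen-methyl, against 142, 183, 247 and 209 CPM after water (log2 fold change -1.10 ± 0.23, adjusted p = 0.00928), a call that was lost in the fit of all 32 libraries (adjusted p = 0.0687). The xylem list summed to 3.04 to 20.1 CPM after halauxifen-methyl and 10.5 to 17.6 CPM after water. The 2 markers of meristem and cell division in the table had 0 counts in all 8 libraries, and the root markers summed to 0 to 1.44 CPM after halauxifen-methyl and 0 to 0.6304 CPM after water. The part of cell composition in the results was not tested.

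At 1 HAT, in other plants, 25 of 14207 tested genes (0.176%) were higher and 0 lower after halauxifen-methyl. At an unadjusted p under 0.05, 352 were higher and 159 lower, and DESeq2 called 77 higher and 4 lower. The count of 25 depended on single libraries of 1 HAT, since it was 1 without water replicate 3, 2 without water replicate 2, 14 without water replicate 1, and 4 and 5 without halauxifen-methyl replicates 3 and 1. Of the 25, 21 (84.0%) were also higher at 6 HAT, which is 1.69% of the genes higher then. They included 7 SAUR genes, 3 AUX/IAA genes and ARF19. IAA29 (HW_50873) had 83.9, 63.01, 107 and 133 CPM after halauxifen-methyl, against 6.81, 9.92, 6.35 and 15.3 CPM after water at 1 HAT, and 786, 1168, 898 and 578 CPM after halauxifen-methyl, against 38.98, 9.51, 13.7 and 15.1 CPM after water at 6 HAT. Its log2 fold change was 3.33 ± 0.35 (adjusted p = 0.00689) at 1 HAT and 5.47 ± 0.48 at 6 HAT, a difference of 2.15 ± 0.55 (adjusted p = 0.0269). ZFP7 (HW_27793), a zinc finger protein, had 6.55, 7.44, 12.3 and 4.55 CPM after halauxifen-methyl, against 0.102, 0, 0 and 0 CPM after water at 1 HAT, and at 6 HAT had 156, 129, 105 and 155 CPM after halauxifen-methyl, against 0.119, 1.26, 0.989 and 0.794 CPM after water.

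The 4 genes called at 1 HAT and not at 6 HAT are named here after their values were seen. ARF16 (HW_40117), a repressor ARF in *A. thaliana*, had 87.5, 110.3, 164 and 134 CPM after halauxifen-methyl, against 30.4, 24.2, 31.8 and 41.7 CPM after water at 1 HAT, and its log2 fold change of 1.95 ± 0.24 (adjusted p = 0.0149) was followed by -0.20 ± 0.22 at 6 HAT. The difference between the 2 times was -2.15 ± 0.33 (adjusted p = 0.000799) by the interaction test in 16 libraries. HT1 (HW_32700), a kinase of stomatal movement, had 1.36 ± 0.19 (adjusted p = 0.0252) at 1 HAT, -0.07 ± 0.19 at 6 HAT and a difference of -1.43 ± 0.27 (adjusted p = 0.00359). AT1G53190 (HW_54465), a RING protein, had 1.37 ± 0.21 (adjusted p = 0.0334) at 1 HAT and a difference of -1.30 ± 0.28 (adjusted p = 0.0111). EXPA8 (HW_23310) had 1.51 ± 0.23 (adjusted p = 0.0334) at 1 HAT and 0.44 ± 0.25 at 6 HAT, and that difference did not pass the test (-1.07 ± 0.34 (adjusted p = 0.085)).

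**Figure D4:**
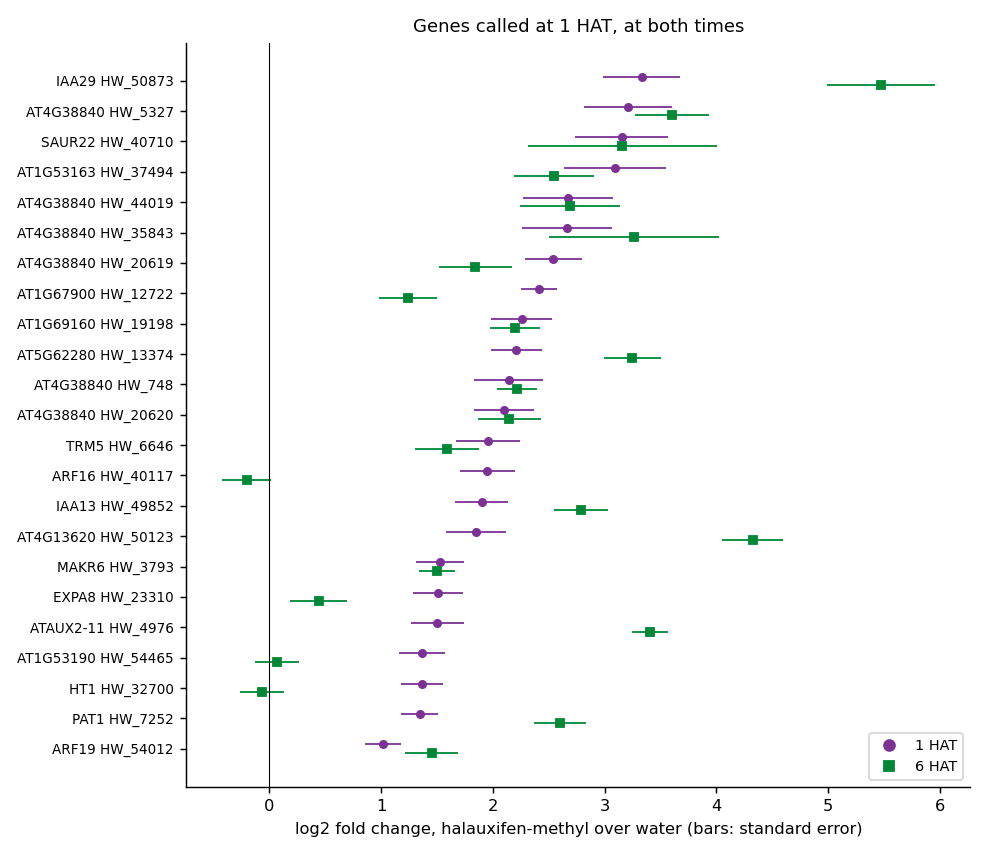
Log2 fold changes (halauxifen-methyl over water, with the standard error) at 1 HAT and 6 HAT of 23 of the 25 genes called at 1 HAT. ZFP7 and RAP2.7 are left out because their water libraries of 1 HAT held 3 counts or fewer. ARF16, HT1, AT1G53190 and EXPA8 lie near 0 at 6 HAT, and IAA29, AT4G13620 and ATAUX2-11 lie farther right at 6 than at 1 HAT.

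The effect of halauxifen-methyl was higher at 6 than at 1 HAT for 541 of 15860 tested genes and lower for 330, which is 3.41% and 2.08%, 5.49% in all. The count of 330 was 218 without water replicate 2 of 1 HAT. CCD1 (HW_21726) had 128, 122, 161 and 134 CPM after halauxifen-methyl, against 89.8, 172, 136 and 124 CPM after water at 1 HAT, where the groups overlapped, and the effects differed by 4.56 ± 0.30 (adjusted p = 3.51e-07). TPPD (HW_54271) had 58.3, 43.1, 37.4 and 25.7 CPM after halauxifen-methyl, against 32.9, 35.9, 20.97 and 41.01 CPM after water at 1 HAT and a difference of 5.23 ± 0.37 (adjusted p = 6.18e-07), and AT3G14840 (HW_24526), a receptor-like kinase, had a difference of 3.42 ± 0.31 (adjusted p = 1.12e-05). HMG1 (HW_13619) had 52.3, 49.5, 38.001 and 43.5 CPM after halauxifen-methyl, against 68.1, 51.5, 36.99 and 38.6 CPM after water at 1 HAT, with a difference of 3.94 ± 0.39 (adjusted p = 2.61e-05). GLYI7 (HW_37130) had 19.95, 2.41, 6.32 and 8.92 CPM after halauxifen-methyl, against 4.405, 22.6, 5.22 and 3.64 CPM after water at 1 HAT, overlapping, and a difference of 10.16 ± 0.96 (adjusted p = 1.5e-05). Among genes with the lower effect at 6 HAT, DWF1 (HW_21358) had 134, 119, 104 and 132 CPM after halauxifen-methyl, against 119.6, 142, 145 and 129.7 CPM after water at 1 HAT and a difference of -3.22 ± 0.26 (adjusted p = 2.27e-06), RR5 (HW_40511) -3.32 ± 0.30 (adjusted p = 1.17e-05) and UGT72B3 (HW_53424) -3.10 ± 0.34 (adjusted p = 6.42e-05). AT4G28100 (HW_22393), a membrane protein, and AT1G80130 (HW_27175) followed with -2.94 ± 0.29 (adjusted p = 2.61e-05) and -3.76 ± 0.40 (adjusted p = 6.23e-05). The 1 HAT and 6 HAT values of CPM come from 2 separate normalizations, and every water library of 1 HAT was above every water library of 6 HAT for CCD1, TPPD, HMG1 and GLYI7.

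Set directly against 2,4-D at 6 HAT, without the water libraries, 742 of 14622 genes were higher and 433 lower after halauxifen-methyl (5.07% and 2.96%, 8.04% in all). The count of higher genes was 433 and 442 without 2,4-D replicates 2 and 3, and that of lower genes was 766 without halauxifen-methyl replicate 4 and 264 without 2,4-D replicate 3. The counts in the lists stand beside that 8.04%. AUX/IAA genes had 1 higher and 1 lower of 14, SAUR genes 1 and 0 of 30, and GH3 genes 0 and 1 of 12. Jasmonate synthesis had 6 higher and 0 lower of 13, the phenylpropanoid core 14 and 4 of 34, terpene synthases 4 and 0 of 22, AP2/ERF factors 14 and 1 of 55, calcium sensors and kinases 13 and 1 of 76, and fatty acid genes 9 and 1 of 36. UDP-glycosyltransferases had 5 higher and 17 lower of 97, glutathione S-transferases 1 and 5 of 18, and ABC and MATE transporters 7 and 12 of 79.

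EDS1 (HW_6346), a regulator of plant immunity, had 142, 122, 158 and 132 CPM after halauxifen-methyl, against 9.7998, 12.7, 9.21 and 14.7 CPM after 2,4-D, a log2 difference of 3.57 ± 0.19 (adjusted p = 2.48e-06). NIMIN-2 (HW_11835), which binds the salicylic acid receptor NPR1 in *A. thaliana*, had 51.2, 79.2, 64.99 and 50.1 CPM after halauxifen-methyl, against 4.05, 5.03, 5.95 and 5.73 CPM after 2,4-D, a difference of 3.56 ± 0.21 (adjusted p = 5.65e-06). AT4G10490 (HW_26514), an oxygenase dependent on 2-oxoglutarate, had 119, 128, 66.5 and 98.9 CPM after halauxifen-methyl, against 1.77, 0.684, 0.491 and 0.591 CPM after 2,4-D, a difference of 6.87 ± 0.40 (adjusted p = 5.65e-06). RDR1 (HW_38400), an RNA polymerase of antiviral silencing, had 118, 91.3, 99.6 and 71.7 CPM after halauxifen-methyl, against 5.75, 5.52, 9.51 and 3.96 CPM after 2,4-D, a difference of 3.94 ± 0.28 (adjusted p = 2.42e-05). RDR1 did not pass the test between halauxifen-methyl and water (log2 fold change 0.09 ± 0.32, adjusted p = 0.911), and 2,4-D differed from water by -3.84 (adjusted p = 3.5e-05). AT1G60690 (HW_33360), an aldo/keto reductase, differed by 2.52 ± 0.17 (adjusted p = 1.35e-05).

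The 5 genes with the smallest p among those lower after halauxifen-methyl than after 2,4-D encode glutathione enzymes and aldo/keto reductases. GSTU19 (HW_20212), a tau-class glutathione S-transferase of the kind that conjugates xenobiotics, had 3.05, 1.96, 2.57 and 1.84 CPM after halauxifen-methyl, against 247, 223, 232 and 184 CPM after 2,4-D, a difference of -6.55 ± 0.22 (adjusted p = 3.01e-07). GSTU25 (HW_12562), of the same class, had 16.7, 19.2, 21.2 and 13.3 CPM after halauxifen-methyl, against 344, 362, 331 and 363 CPM after 2,4-D, a difference of -4.31 ± 0.17 (adjusted p = 4.95e-07). GPX6 (HW_39856), a glutathione peroxidase, had 91.4, 101, 99.6 and 108 CPM after halauxifen-methyl, against 926, 1024, 1012 and 1012 CPM after 2,4-D, a difference of -3.31 ± 0.13 (adjusted p = 4.95e-07). The aldo/keto reductases ATB2 (HW_41920) and AT1G60730 (HW_20116) differed by -3.18 ± 0.13 (adjusted p = 4.95e-07) and -3.21 ± 0.13 (adjusted p = 4.95e-07). None of these 5 genes passed the test against water after halauxifen-methyl, where their log2 fold changes ran from -0.20 ± 0.28 (GSTU25) to 0.81 ± 1.09 (GSTU19). Against water, 2,4-D gave 7.36 (adjusted p = 1.04e-05) for GSTU19 and 4.13 (adjusted p = 7.51e-07) for GSTU25. Both comparisons share the water libraries, so these values are set side by side only.

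**Figure D5:**
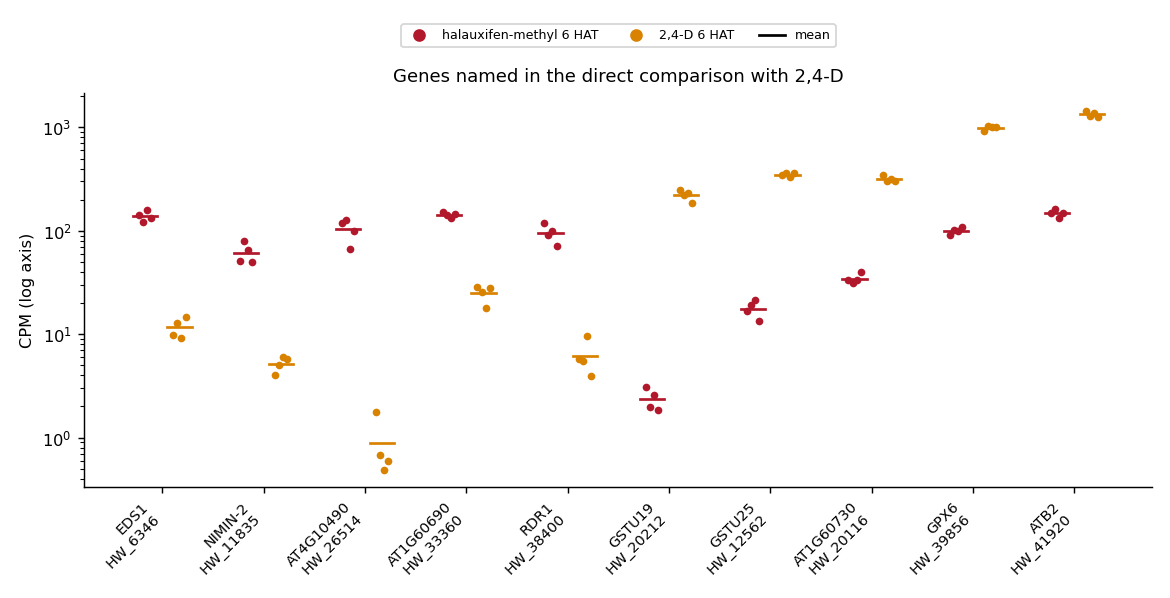
CPM of the 10 genes named in the direct comparison with 2,4-D, in each of the 4 halauxifen-methyl libraries (left) and the 4 2,4-D libraries (right) at 6 HAT on a log axis, with the group mean as a bar. The groups do not overlap for any of the 10 genes, and GSTU19 has 1.84 to 3.05 CPM after halauxifen-methyl and 184 to 247 CPM after 2,4-D.

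Against dicamba at 6 HAT, 40 of 14719 genes were higher and 32 lower after halauxifen-methyl (0.272% and 0.217%, 0.489% in all), with 1374 at an unadjusted p under 0.05. These counts depended on single libraries. The count of higher genes was 20, 10 and 17 without halauxifen-methyl replicates 1, 2 and 3 and 20, 18 and 25 without dicamba replicates 1, 2 and 4, and that of lower genes was 15 and 13 without halauxifen-methyl replicates 1 and 2 and 20 and 21 without dicamba replicates 2 and 4. NIMIN-2 (HW_11835) had 53.1, 81.8, 66.97 and 50.2 CPM after halauxifen-methyl, against 6.43, 10.5, 17.8 and 13.3 CPM after dicamba, a difference of 2.39 ± 0.31 (adjusted p = 0.0147). ADT6 (HW_35618) had 366, 377, 366 and 375 CPM after halauxifen-methyl, against 137, 87.3, 149 and 93.7 CPM after dicamba, a difference of 1.67 ± 0.21 (adjusted p = 0.0118). RDR1 (HW_38400), BCS1 (HW_25078), of a mitochondrial ATPase family, and NDB2 (HW_11988), a mitochondrial NADH dehydrogenase, were higher by 2.40 ± 0.25 (adjusted p = 0.00513), 2.91 ± 0.36 (adjusted p = 0.0118) and 2.12 ± 0.28 (adjusted p = 0.0154). AT2G21110 (HW_26196), a dirigent-like protein, was lower, with 0.452, 0.475, 0.7796 and 0.173 CPM after halauxifen-methyl, against 10.5, 12.1, 23.1 and 23.05 CPM after dicamba, a difference of -5.20 ± 0.51 (adjusted p = 0.00513). ABCB27 (HW_48333), a transporter, had 193, 151, 215 and 171 CPM after halauxifen-methyl, against 705, 1201, 1096 and 703 CPM after dicamba, a difference of -2.34 ± 0.24 (adjusted p = 0.00513), and the aldo/keto reductase AT1G60690 (HW_35772) differed by -2.65 ± 0.23 (adjusted p = 0.00513). PHB2 (HW_926), a prohibitin, had 13.9, 14.7, 14.3 and 9.38 CPM after halauxifen-methyl, against 69.1, 68.2, 42.4 and 56.4 CPM after dicamba, a difference of -2.17 ± 0.23 (adjusted p = 0.00513), although it was also higher than after water (log2 fold change 3.78 ± 0.90, adjusted p = 0.0177), a call that was lost without halauxifen-methyl replicate 1 or water replicate 3 or 4 (adjusted p = 0.0509 to 0.0577). AT4G38540 (HW_46929), an oxidoreductase, differed by -1.82 ± 0.18 (adjusted p = 0.00513).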

How the data were processed

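RNA from single leaves was sequenced on an Illumina platform, and the submitters' processing notes name FastQC 0.11.2, STAR 2.5.2b and HTSeq 0.6.1. The authors deposited 1 table of raw counts per predicted gene, annotated by similarity to *A. thaliana* proteins. The gene models hold no UTRs, and neither the strand setting nor the treatment of multiply mapped reads is given in the sources used here. Counts were tested with edgeR 4.0.16 (R 4.3.3, TMM normalization, filterByExpr with a minimum count of 10, glmQLFit and glmQLFTest, Benjamini-Hochberg adjustment over all tested genes, threshold 0.05) on the 8 libraries of each contrast, and on 16 libraries for the interaction of treatment and time. ± is the standard error of a log2 fold change. A fold against a group with 0 counts in every library was computed against 3 counts per library, which allows for counting error only, and none is given where a group held 1 to 3 counts. The fits were tested on simulated counts.

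The gene lists, the members and the tests were chosen with earlier results of these data known. Genes were named by rule, as the 10 largest changes in each direction without overlap, up to 3 genes per list and direction by adjusted p, 5 per direction for each direct test, 2 without a hit and 3 of the most counted per direction. For hormone enzymes, some members that missed the threshold were named too. Genes of 1 HAT were named after their values were seen. Alternatives used DESeq2 1.42.0, its size factors, other count filters, edgeR's exact test, a replicate block, all 32 libraries and each library left out. Those of 1 HAT were chosen after seeing the data.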

Additional observations from a re-analysis of the deposited data

Results flagged for a closer look

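In groups of 4 libraries, 19 of 469 values and sums had a lowest or highest library far from the nearest other one by Dixon's test. For normally distributed values chance gives about 1 in 20 groups. That rate does not apply where all libraries but 1 had 0 counts, as for CYP94C1, IPT3, ZFP1 and GSTF12 below, since a few reads then suffice for a flag. Among genes, halauxifen-methyl replicate 2 had 21.4 CPM of ERF1 (HW_10339) and 156.9 CPM of TPS14 (HW_5080), replicate 4 had 9.13 CPM of AT3G15115 (HW_6751) and 8.70 CPM of PHB2 (HW_926), replicate 1 had 0.272 CPM of ZFP1 (HW_45617), and replicate 3 had 0.212 CPM of GSTF12 (HW_37760). In the water group, replicate 1 had 5.64 CPM of ACD1-LIKE (HW_50928) and 26.9 CPM of EFE (HW_15637), replicate 2 had 0.172 CPM of CYP94C1 (HW_17233), replicate 3 had 158 CPM of DWF1 (HW_21358), and replicate 4 had 0.113 CPM of IPT3 (HW_32711).

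Among list sums, halauxifen-methyl replicate 4 had 477 CPM for cytokinin synthesis and activation, 1077 CPM for cellulose synthases and laccases and 9873 CPM for ubiquitin ligases, and replicate 2 had 1219 CPM for WRKY factors. Water replicate 2 had 372 CPM for JAZ repressors, and water replicate 4 had 17.6 CPM for xylem markers. Water replicate 1 was apart from the other water libraries on the first and second principal components of the 8 libraries, with scores of -223.6 and 60.1. These components held 53.2% and 22.0% of the variance. On the first, the other water libraries scored -15.8 to -6.44 and the halauxifen-methyl libraries 53.7 to 73.9. On the second, the other water libraries scored -84.2 to -63.4 and the halauxifen-methyl libraries 24.2 to 60.4. There water replicate 1 lay within the halauxifen-methyl range.

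The effect of halauxifen-methyl differed between 6 and 1 HAT by the interaction test, with 541 genes higher and 330 lower at 6 HAT. As log2 differences, GLYI7 (HW_37130) had 10.16, TPPD (HW_54271) 5.23, CCD1 (HW_21726) 4.56, HMG1 (HW_13619) 3.94 and AT3G14840 (HW_24526) 3.42. On the lower side, AT1G80130 (HW_27175) had -3.76, RR5 (HW_40511) -3.32, DWF1 (HW_21358) -3.22, UGT72B3 (HW_53424) -3.10 and AT4G28100 (HW_22393) -2.94.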

How the results depend on the processing

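At 6 HAT against water, where 1242 genes were higher and 891 lower, the other tools, normalizations and filters gave 1160 to 1619 higher and 868 to 1271 lower genes. Leaving out 1 library gave 911 to 1532 higher and 512 to 1158 lower. At 1 HAT (25 higher, 0 lower), DESeq2 gave 77 and 4, no filter on low counts 41 higher, the fit of all 32 libraries 53 and 1, and leaving out 1 library 1 to 34 higher and 0 lower. For the interaction (541 and 330), DESeq2 gave 855 and 547, and leaving out 1 library 392 to 583 and 218 to 380. Against 2,4-D (742 and 433), DESeq2 gave 1114 and 732, the fit of all 32 libraries 371 and 216, and leaving out 1 library 433 to 996 and 264 to 766. Against dicamba (40 and 32), DESeq2 gave 245 and 130, no filter 89 and 56, the fit of all 32 libraries 87 and 49, and leaving out 1 library 10 to 47 and 13 to 36. The cause of these shifts was not tested. Leaving out 1 library also leaves fewer degrees of freedom, and the counts fell in some of these fits and rose in others.

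Of 149 named genes called at 6 HAT, none changed direction in 2201 refits and 129 stayed past the threshold in every one, while the others lost the call in 49 refits in all. These genes were named mainly for a small adjusted p or a large change in the same libraries, which the refits use again. Their steadiness therefore follows in part from the choice and does not extend to the other called genes. Among named genes that were not called, the sign of the log2 fold change turned when 1 library was left out. It ran from -0.84 to 0.028 for NCED3 (HW_373), from -0.35 to 0.073 for GSTU25 (HW_12562), from -0.19 to 0.065 for GPX6 (HW_39856), from -0.33 to 0.015 for ARF16 (HW_40117), from -0.069 to 0.16 for AT1G53190 (HW_54465), from -0.23 to 0.026 for HT1 (HW_32700) and from -0.14 to 0.35 for RDR1 (HW_38400).

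The labels give replicate numbers but no pairing. The deviations of same-numbered libraries from their group means correlated at r = -0.049 to 0.007, and those of libraries with different numbers at -0.038 to 0.095. These values cannot show whether plants of the same number were handled together. With the number as a replicate block, 885 genes were higher and 562 lower at 6 HAT, 29 and 1 at 1 HAT, 392 and 233 against 2,4-D, and 17 and 30 against dicamba, and 10 named genes lost their call. Depth limited genes under 0.117 to 0.212 CPM, the value of 3 counts in a library.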
